A study of Mus musculus with 12 samples.

Results

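The fibroblast growth factor (FGF) genes described here are 10 mouse genes, of the 14277 that single-name probes on the array stand for: the ligands Fgf1, Fgf2, Fgf7, Fgf9, Fgf10 and Fgf18, the receptors Fgfr1, Fgfr2 and Fgfr3, and the binding protein Fgfbp1. They were chosen by name, with earlier results of these data known. Every probe annotated with 1 of these symbols was taken, which gave 16 of the 45281 probes on the array, and all 16 were among the 33960 tested. A further probe, named both Flg and Fgfr1, was left out. Transcript levels were measured on Illumina bead arrays in ear tissue of the inbred mouse strains LG/J, which closes ear punch holes well, and SM/J, which does so poorly. The 12 arrays form 4 groups of 3: LG/J ear from around the punch at day 7 after injury, LG/J normal ear, SM/J ear from around the punch at day 7, and SM/J normal ear. No allele or agent beyond strain and punch is named in the labels, and the age of the mice and the number of animals behind a sample are not given in the sources used here. The p-values below therefore measure the spread between these samples, which may be technical.

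FGF ligands act outside the cell, where they bind receptor tyrosine kinases on neighbouring cells together with heparan sulfate, and the bound receptor signals through the MAP kinase cascade to ETS transcription factors. In skin, dermal fibroblasts make Fgf7 and Fgf10, which act on the epithelial splice form of Fgfr2 on keratinocytes. Fgf1 and Fgf2 bind receptors on many cell types, Fgfr3 is best known as a restraint on cartilage growth and is also present in epidermis, and Fgfbp1 carries FGFs away from their stores in the matrix.

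Median raw intensity per array ran from 95.9 to 118, and 52.4% to 55.0% of probes lay above a background limit set from each array's own signal. That limit was at 5.75 to 5.83 on the scale used below, the log2 of the background-corrected and quantile-normalized intensity. Levels of different probes cannot be set against each other. The ear tissue carried markers of several cell types: the keratins Krt5 and Krt14 of basal keratinocytes, Col1a1 of fibroblasts, Acan of cartilage, Adipoq of fat and Acta1 of skeletal muscle were above the limit on all 12 arrays. Not every marker was: Fabp4, also of fat, passed it on 2 arrays and Matn3, also of cartilage, on 1. An array stood apart. The first principal component, 50.7% of the variance, separated the strains, with the uninjured LG/J array called replicate 4 at -6.28, where the other uninjured LG/J arrays were at 66.0 and 61.9 and the uninjured SM/J arrays lay between -69.1 and -36.2. Results that rest on this array are given below with and without it.

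The 250 bases before the annotated start of 5 of the genes are shown first, because these genes carry most of the calls that held with any array left out: Fgfr2, Fgf10 and Fgf18 for injury, and Fgf7 and Fgfbp1 for strain. The sequences are RefSeq's for the mouse reference build GRCm38.p6, which is neither LG/J nor SM/J. They lie at chr7:130266809-130267058 on the minus strand for Fgfr2, chr13:118714449-118714698 on the plus strand for Fgf10, chr11:33147401-33147650 on the minus strand for Fgf18, chr2:126034408-126034657 on the plus strand for Fgf7 and chr5:43981829-43982049 on the minus strand for Fgfbp1. For Fgfbp1 only the 221 bases that lie outside the annotated gene are printed. Capitals mark matches to any of 4 motifs searched on both strands: the TATA box TATAAA, the GC box GGGCGG, the AP-1 site TGANTCA and the ETS core CCGGAAG.
Fgfr2: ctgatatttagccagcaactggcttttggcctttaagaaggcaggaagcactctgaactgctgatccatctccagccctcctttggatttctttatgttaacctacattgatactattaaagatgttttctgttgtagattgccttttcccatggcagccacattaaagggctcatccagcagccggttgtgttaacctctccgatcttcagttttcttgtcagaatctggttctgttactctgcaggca
Fgf10: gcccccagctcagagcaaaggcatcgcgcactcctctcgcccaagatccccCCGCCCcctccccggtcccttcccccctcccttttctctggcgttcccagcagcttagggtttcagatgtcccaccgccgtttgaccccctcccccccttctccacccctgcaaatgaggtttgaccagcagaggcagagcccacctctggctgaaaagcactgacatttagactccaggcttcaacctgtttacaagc
Fgf18: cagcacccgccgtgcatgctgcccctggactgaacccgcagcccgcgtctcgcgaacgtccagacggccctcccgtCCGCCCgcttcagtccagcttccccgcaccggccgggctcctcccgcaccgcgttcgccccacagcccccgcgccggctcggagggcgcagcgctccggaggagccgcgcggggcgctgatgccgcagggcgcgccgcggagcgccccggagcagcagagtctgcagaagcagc
Fgf7: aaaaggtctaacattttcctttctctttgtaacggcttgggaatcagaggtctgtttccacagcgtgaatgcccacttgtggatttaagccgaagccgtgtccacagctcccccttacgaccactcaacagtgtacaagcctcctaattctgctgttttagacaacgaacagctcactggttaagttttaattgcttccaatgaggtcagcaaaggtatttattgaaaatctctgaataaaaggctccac
Fgfbp1: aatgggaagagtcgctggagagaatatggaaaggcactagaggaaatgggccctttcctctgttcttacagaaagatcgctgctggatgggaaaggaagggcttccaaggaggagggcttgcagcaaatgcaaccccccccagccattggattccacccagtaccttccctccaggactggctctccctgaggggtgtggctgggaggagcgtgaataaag

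The only matches in these 5 windows were a GC box on the opposite strand, read as CCGCCC, in Fgf10 and in Fgf18, at positions -199 and -174 counted from the start. Over all 32851 promoter windows of that length, 32.7% hold a GC box, 12.4% a TATA box, 6.75% the AP-1 site and 6.91% the ETS core. GC content was 77.2% for Fgf18 and 61.2% for Fgf10, against a median of 52.4% over all windows. It was 53.6% for Fgfbp1, 44% for Fgfr2 and 43.6% for Fgf7. The Fgfbp1 value and motif search cover its full window of 250 bases, not only the 221 printed. Entries were found for 8 of the 10 genes.

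Around the punch at day 7, every FGF probe that passed the threshold with all arrays was lower than in uninjured ear, in both strains. In LG/J, 4 of 16 probes fell and 0 rose, against 9.04% of all probes called in either direction, 4.23% lower and 4.81% higher. The 4 probes belong to Fgf1, Fgf10 and Fgfr2. In SM/J, 4 probes fell and 0 rose, against 9.39% of all probes called, 4.21% lower and 5.17% higher, and these belong to Fgf1, Fgf10, Fgf18 and Fgfr2. The median log2 difference over the 16 probes was -0.56 in LG/J and -0.67 in SM/J, where over all probes it was -0.01 and -0.02. Day 7 means lay below uninjured means for 14 probes in LG/J and 15 in SM/J, with 13 lower in both. The Fgf1 probe ILMN_2701233 and the Fgfr2 probe ILMN_1225071 were called in both strains.

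Calls used limma with Benjamini-Hochberg adjustment over all 33960 probes at an adjusted p under 0.05. Scaling each array to its median in place of quantile normalization called 7 FGF probes lower in each strain, and over all probes it gave 975 higher and 2319 lower in LG/J and 891 higher and 2269 lower in SM/J. Quantile normalization gave 1635 higher and 1436 lower in LG/J and 1757 higher and 1431 lower in SM/J. Without LG/J uninjured replicate 4 the FGF counts were 7 in LG/J, 1 of them higher, against 9.64% of all probes, and 8 in SM/J, all lower, against 17.6%. In whole tissue, fewer cells of a type and less RNA per cell cannot be told apart.

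**Figure D1:**
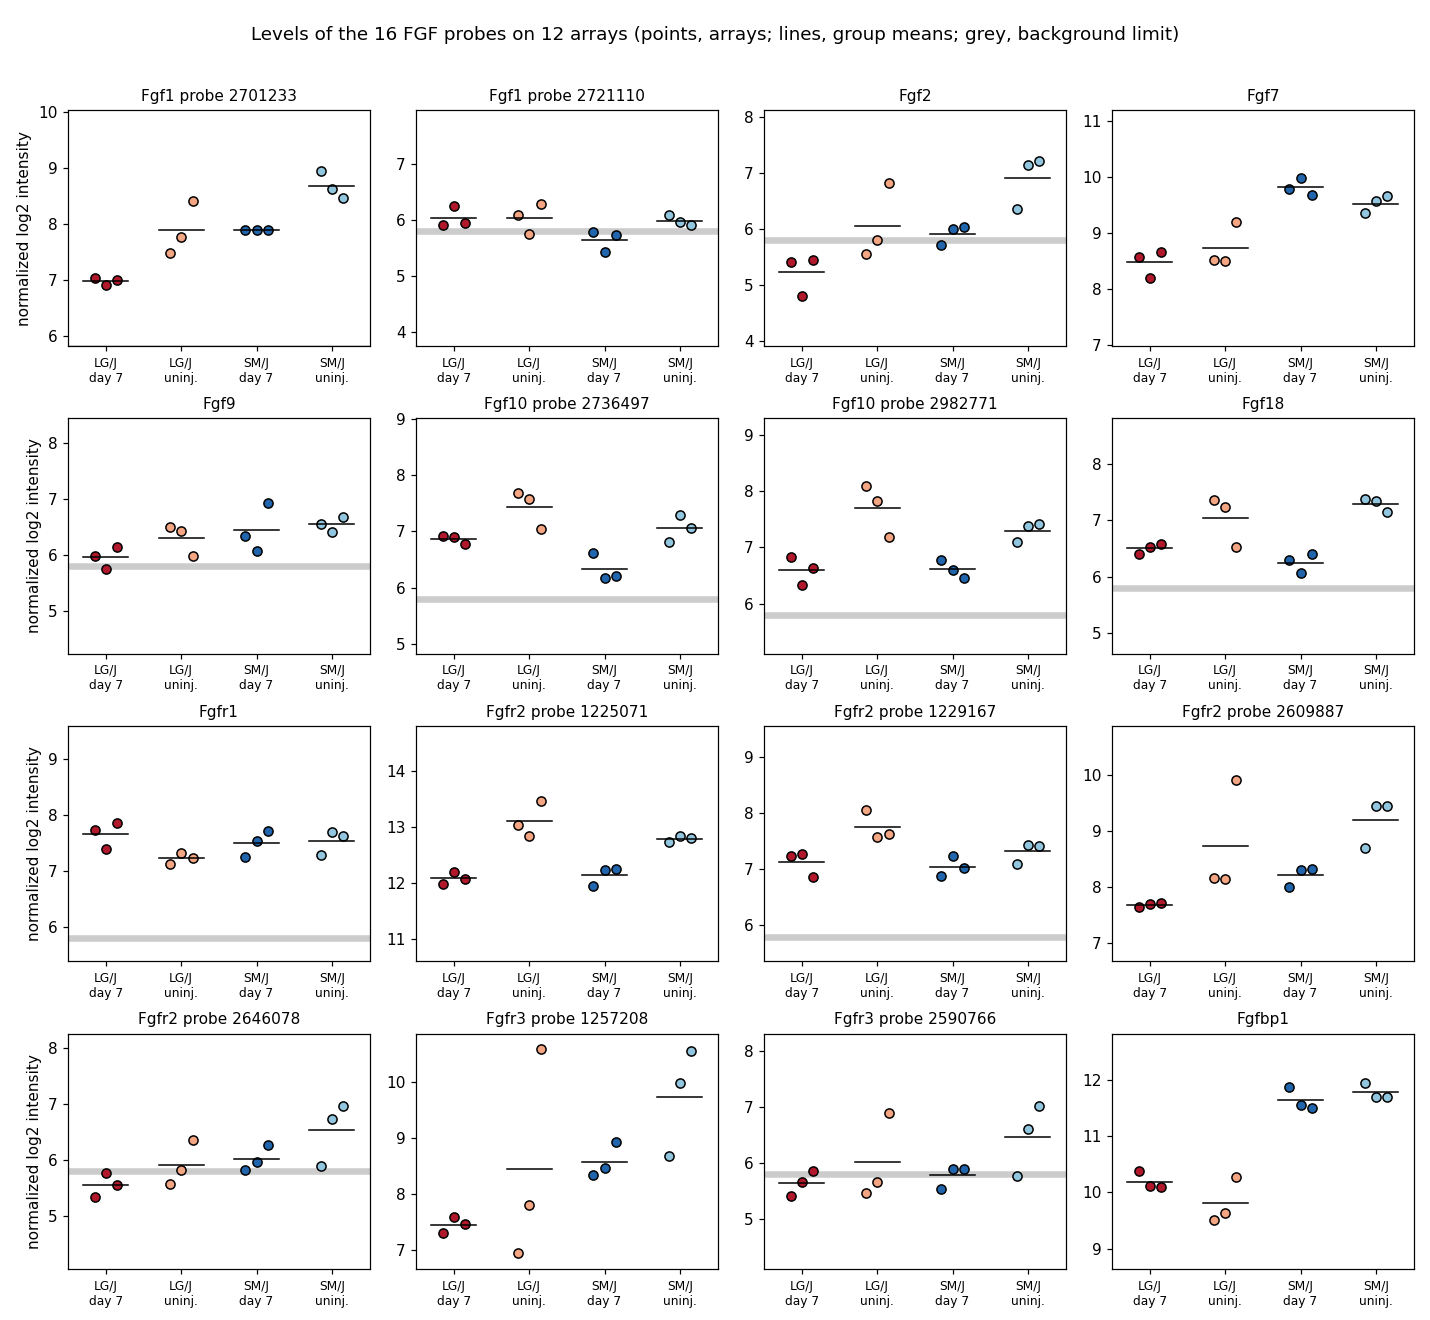
Normalized log2 intensity of the 16 FGF probes on the 12 arrays, with points for arrays, black lines for group means (n = 3 each) and a grey band for the background limit of 5.75 to 5.83. Every panel spans the same width on the vertical axis. Fgfbp1 and Fgf7 separate the strains, Fgf18, Fgf10 and the Fgfr2 probe ILMN_1225071 separate day 7 from uninjured ear in mean, and the Fgfr3 and Fgfr2 panels show the uninjured LG/J array that stood apart.

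Fgfr2, the receptor through which keratinocytes receive Fgf7 and Fgf10, is covered by 4 probes. On ILMN_1225071 the levels were 11.98, 12.21 and 12.07 in LG/J at day 7, against 13.03, 12.84 and 13.47 in uninjured LG/J ear. In SM/J they were 11.94, 12.23 and 12.25 at day 7, against 12.73, 12.85 and 12.81 in uninjured ear. In each strain all day 7 arrays lay below all uninjured arrays. The level fell by 1.03 ± 0.16 on the log2 scale in LG/J (SE, n = 3 per group), to 0.491 times the uninjured level, with an adjusted p of 0.00158. In SM/J it fell by 0.65 ± 0.16, to 0.636 times the uninjured level, with an adjusted p of 0.0219. The LG/J call held with any 1 of the 12 arrays left out, with adjusted p-values of 0.00137 to 0.0126, and without LG/J uninjured replicate 4 the difference was -0.85. The SM/J call was lost without SM/J day 7 replicate 1 (adjusted p = 0.107), SM/J uninjured replicate 4 (0.0837) or SM/J uninjured replicate 5 (0.0743).

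Of the other 3 Fgfr2 probes, 1 was called, in LG/J alone. ILMN_1229167 read 7.23, 7.28 and 6.86 in LG/J at day 7, against 8.06, 7.58 and 7.62 in uninjured LG/J ear. The groups did not overlap, and the fall of 0.63 ± 0.17 passed the threshold (adjusted p = 0.0378). That call was lost, with adjusted p-values of 0.0508 to 0.154, when any of 7 arrays was left out: LG/J day 7 replicate 1, 2 or 3, LG/J uninjured replicate 1, SM/J day 7 replicate 3, or SM/J uninjured replicate 4 or 5. It was also lost with the 2 LG/J groups fitted alone (0.106). In SM/J the same probe differed by -0.27 and was not called (adjusted p = 0.392).

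ILMN_2609887 read 7.64, 7.69 and 7.71 in LG/J at day 7, against 8.16, 8.14 and 9.90 in uninjured LG/J ear. The SM/J levels were 8.0, 8.31 and 8.31 at day 7, against 8.69, 9.45 and 9.45 in uninjured ear. The day 7 arrays were lower without overlap in both strains, but the differences of -1.05 ± 0.37 and -0.99 ± 0.37 did not pass the threshold (adjusted p = 0.0978 in LG/J). The value of 9.90 is the array that stood apart, and without it the LG/J difference was -0.47 (adjusted p = 0.181) while the SM/J fall passed the threshold (adjusted p = 0.00239). The LG/J fall was called when uninjured replicate 3 of LG/J was left out, at -1.35 (adjusted p = 0.0491). ILMN_2646078 was below background on all 3 LG/J day 7 arrays. In uninjured LG/J ear 2 of 3 arrays were above the limit, and the difference of -0.36 was -0.14 with LG/J uninjured replicate 4 left out (adjusted p = 0.807). It was called in neither strain with all arrays, and in SM/J without SM/J uninjured replicate 2 (-0.83, adjusted p = 0.0369).

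Fgfr3 had the widest spread within groups among these genes. Its probe ILMN_1257208 read 7.30, 7.59 and 7.47 in LG/J at day 7, against 6.94, 7.81 and 10.58 in uninjured LG/J ear. The SM/J levels were 8.35, 8.46 and 8.93 at day 7, against 8.68, 9.98 and 10.55 in uninjured ear. The groups overlapped in both strains, and the LG/J difference of -0.99 ± 0.69 and the SM/J difference of -1.16 ± 0.69 did not pass the threshold. The value of 10.58 is again LG/J uninjured replicate 4, which was 3.21 above the mean of the other uninjured LG/J arrays. Without that array the LG/J difference was 0.08 (adjusted p = 0.94), and the SM/J fall was called (adjusted p = 0.0469). The second probe, ILMN_2590766, had group means of 5.64 in LG/J at day 7 and 6.01 in uninjured LG/J, and 5.77 in SM/J at day 7 and 6.46 in uninjured SM/J, and was not called.

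Fgfr1, the receptor with the broadest use in mesenchymal cells, did not follow the falls of Fgfr2 in LG/J. It read 7.72, 7.39 and 7.85 in LG/J at day 7, against 7.12, 7.31 and 7.23 in uninjured LG/J ear, so all day 7 arrays were higher. The difference of 0.43 ± 0.17 did not pass the threshold (adjusted p = 0.129). Levels in SM/J were 7.25, 7.53 and 7.70 at day 7, against 7.29, 7.69 and 7.61 in uninjured ear, with overlapping groups and a difference of -0.04.

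Among the ligands, Fgf10, the mesenchymal ligand of Fgfr2, was lower at day 7 on both of its probes. On ILMN_2982771 the levels were 6.82, 6.32 and 6.63 in LG/J at day 7, against 8.09, 7.82 and 7.18 in uninjured LG/J ear. In SM/J they were 6.77, 6.60 and 6.46 at day 7, against 7.09, 7.38 and 7.42 in uninjured ear. Groups did not overlap in either strain. The fall in LG/J was 1.11 ± 0.21, to 0.464 times the uninjured level, with an adjusted p of 0.00554, and it was called with each array left out in turn (adjusted p of 0.000339 to 0.0286). In SM/J this probe differed by -0.68 ± 0.21 and was not called (adjusted p = 0.0608), but it was called without LG/J uninjured replicate 1 (0.0398) or replicate 4 (0.00871).

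The second Fgf10 probe, ILMN_2736497, crossed the threshold in the other strain. It read 6.91, 6.91 and 6.77 in LG/J at day 7, against 7.68, 7.58 and 7.04 in uninjured LG/J ear, a difference of -0.57 ± 0.19 that was not called (adjusted p = 0.0794). SM/J arrays read 6.61, 6.17 and 6.20 at day 7, against 6.82, 7.30 and 7.06 in uninjured ear, and the level fell by 0.73 ± 0.19 (adjusted p = 0.0255). Both probes thus had non-overlapping groups in both strains, and neither was called in both. With LG/J uninjured replicate 4 left out, this probe was called in LG/J at -0.76 (adjusted p = 0.0128). The SM/J call was lost, with adjusted p-values of 0.0810 to 0.120, without SM/J day 7 replicate 2 or 3 or SM/J uninjured replicate 4 or 5.

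Fgf18, a ligand known from cartilage and from the hair follicle, read 6.40, 6.52 and 6.58 in LG/J at day 7, against 7.36, 7.25 and 6.52 in uninjured LG/J ear. SM/J arrays read 6.29, 6.06 and 6.40 at day 7, against 7.39, 7.35 and 7.16 in uninjured ear. SM/J groups were fully apart, and LG/J groups overlapped through uninjured replicate 4. The fall in SM/J was 1.05 ± 0.19, to 0.484 times the uninjured level (adjusted p = 0.00371), and it was called with each array left out in turn (9.45e-05 to 0.0236). The LG/J difference of -0.54 ± 0.19 was not called (adjusted p = 0.101). With LG/J uninjured replicate 4 left out it was -0.80 and was called (adjusted p = 0.0031).

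Fgf1, a ligand of all FGF receptors, fell at day 7 in both strains on probe ILMN_2701233. It read 7.05, 6.92 and 7.01 in LG/J at day 7, against 7.48, 7.77 and 8.42 in uninjured LG/J ear. SM/J arrays read 7.89, 7.89 and 7.90 at day 7, against 8.94, 8.63 and 8.46 in uninjured ear. No day 7 array reached the lowest uninjured array of its strain. The falls were 0.90 ± 0.20 in LG/J (adjusted p = 0.0131) and 0.78 ± 0.20 in SM/J (adjusted p = 0.026). The LG/J call was lost with LG/J day 7 replicate 2 left out (adjusted p = 0.0501) and with the 2 LG/J groups fitted alone (0.0679). The SM/J call was lost, with adjusted p-values of 0.0685 to 0.0841, without SM/J day 7 replicate 1, 2 or 3 or SM/J uninjured replicate 2 or 4. The other Fgf1 probe, ILMN_2721110, lay near background, with group means of 6.03 in LG/J at day 7 and 6.03 in uninjured LG/J, and 5.65 in SM/J at day 7 and 5.99 in uninjured SM/J, and was not called, so the fall rests on 1 probe.

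Fgf2, an angiogenic ligand without a secretion signal, was dim. It read 5.41, 4.81 and 5.44 in LG/J at day 7, all below background, against 5.55, 5.80 and 6.82 in uninjured LG/J ear, where 1 of 3 arrays was above it. In SM/J it read 5.71, 6.0 and 6.03 at day 7, against 6.35, 7.14 and 7.21 in uninjured ear. Day 7 arrays lay below the uninjured ones in both strains, without a call (adjusted p = 0.117 in LG/J and 0.0634 in SM/J). The LG/J difference of -0.83 was -0.45 with LG/J uninjured replicate 4 left out (adjusted p = 0.318). The SM/J fall of 0.99 was called with that array left out (adjusted p = 0.00981). It was also called without SM/J uninjured replicate 2, at -1.26 (0.0242), and without LG/J uninjured replicate 1 (0.0476).

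Fgf7, keratinocyte growth factor, and Fgf9 showed no call for injury. Fgf7 read 8.57, 8.20 and 8.65 in LG/J at day 7, against 8.51, 8.49 and 9.20 in uninjured LG/J ear. In SM/J it read 9.78, 9.97 and 9.67 at day 7, against 9.35, 9.56 and 9.65 in uninjured ear. The LG/J groups overlapped, and in SM/J the day 7 arrays were higher by a small margin, with differences of -0.26 ± 0.19 and 0.29 ± 0.19. Fgf9, an epithelial ligand, had group means of 5.95 in LG/J at day 7 and 6.30 in uninjured LG/J, and 6.44 in SM/J at day 7 and 6.54 in uninjured SM/J, with overlap in both strains.

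Fgfbp1, a keratinocyte protein that carries FGFs, read 10.37, 10.11 and 10.10 in LG/J at day 7, against 9.51, 9.64 and 10.28 in uninjured LG/J ear. In SM/J it read 11.88, 11.57 and 11.50 at day 7, against 11.96, 11.70 and 11.70 in uninjured ear. Neither difference passed the threshold (0.38 ± 0.19 in LG/J, adjusted p = 0.249; -0.14 ± 0.19 in SM/J). With LG/J uninjured replicate 4 left out the LG/J groups separated, and the rise of 0.62 was called (adjusted p = 0.0241).

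**Figure D2:**
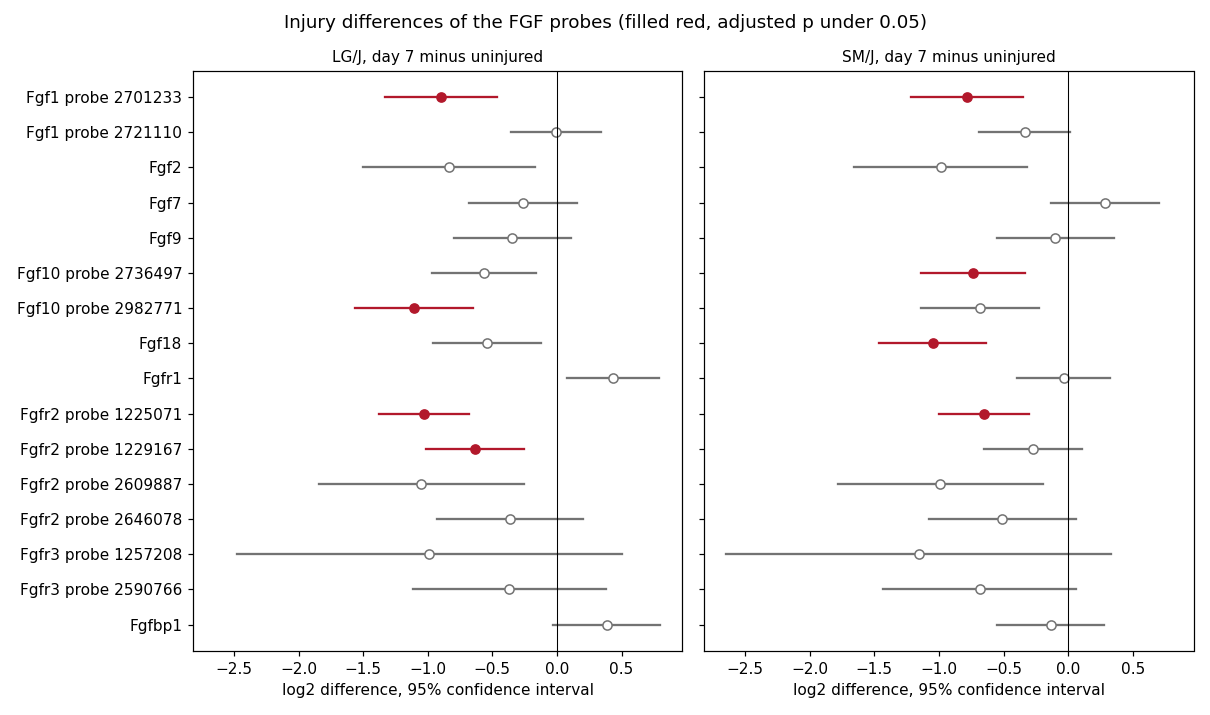
Log2 difference of each FGF probe, day 7 minus uninjured, with 95% confidence intervals, in LG/J on the left and SM/J on the right (filled red, adjusted p under 0.05). The 4 called probes in each strain are all below 0, and Fgfr1 and Fgfbp1 in LG/J and Fgf7 in SM/J lie above 0 without a call.

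By arrays, 7 FGF probes were lower and 1 was higher in LG/J with no overlap between day 7 and uninjured ear, where 15% and 13.2% of all probes were (28.2% in all). In SM/J, 8 were lower and 1 was higher, where 16.7% and 14.9% of all probes were (31.6% in all). The probes that were higher without overlap were Fgfr1 in LG/J and Fgf7 in SM/J.

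Whether the change at day 7 differed between strains was tested directly as an interaction. None of the 16 probes was called, 0 had an unadjusted p under 0.05, and 0.345% of all probes were called, 0.0294% higher and 0.315% lower. The differences between the LG/J and SM/J changes ran from -0.55 for Fgf7 (95% interval -1.14 to 0.04) to 0.52 for Fgfbp1 (-0.06 to 1.11). Fgfr1 stood at 0.47 (-0.04 to 0.98), Fgf18 at 0.51 (-0.08 to 1.09), and the Fgfr2 probe ILMN_1225071 at -0.37 (-0.87 to 0.12). A call in 1 strain and not in the other, as for Fgf18, is therefore not shown to be a strain difference in the change. With the arrays weighted by their estimated quality, Fgfbp1 was called (0.71, adjusted p = 0.0449). Of all probes 1623 were then called, against 117 in the main fit. Both arrays of lowest weight (replicate 4 of uninjured LG/J, replicate 2 of uninjured SM/J) were also left out together. The Fgfr2 probe ILMN_2609887 and both Fgfr3 probes were then called, at 0.77, 1.76 and 1.10, as were 2345 of all probes.

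The strains differed past the threshold in Fgfbp1, Fgf7 and 1 of the 2 Fgf1 probes, ILMN_2701233, and each was lower in LG/J both at day 7 and in uninjured ear. The other Fgf1 probe, ILMN_2721110, differed by 0.38 at day 7 and 0.05 in uninjured ear and was not called. At day 7, 3 of 16 probes were lower in LG/J and 0 were higher, against 25.2% of all probes called, 12% lower and 13.1% higher. In uninjured ear, 3 were lower and 0 were higher, against 21.6% called, 10.6% lower and 11% higher. The median log2 difference, LG/J minus SM/J, over the 16 probes was -0.30 at day 7 and -0.38 in uninjured ear, where over all probes it was 0.05 in both. Leaving out LG/J uninjured replicate 4 gave 7 FGF calls at day 7, 1 higher and 6 lower, against 34.9% of all probes called, and 10 in uninjured ear, 2 higher and 8 lower, against 35.6%.

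Fgfbp1, with the values given above, was lower in every LG/J array than in every SM/J array. The difference was -1.45 ± 0.19 at day 7, a ratio of 0.365 (adjusted p = 0.000199), and -1.98 ± 0.19 in uninjured ear, a ratio of 0.254 (adjusted p = 1.48e-05). Both calls held with each array left out in turn. Fgfbp1 and Fgf7 have 1 probe each, so the strain difference of each gene rests on 1 probe. How well the probes match the sequence of each strain was not tested.

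Fgf7 was 0.396 times the SM/J level in LG/J at day 7, a log2 difference of -1.34 ± 0.19 (adjusted p = 0.000432), and 0.579 times it in uninjured ear, a difference of -0.79 ± 0.19 (adjusted p = 0.0124). LG/J and SM/J arrays did not overlap at either time. The day 7 call held with each array left out in turn. The call in uninjured ear was lost, with adjusted p-values of 0.0514 to 0.0625, without LG/J uninjured replicate 1 or 3 or SM/J uninjured replicate 4 or 5, and without LG/J uninjured replicate 4 the difference was -1.02. Fgf1 on ILMN_2701233 was lower in LG/J by 0.90 ± 0.20 at day 7 (adjusted p = 0.00699) and by 0.79 ± 0.20 in uninjured ear (adjusted p = 0.0148). The day 7 call held with each array left out, and that in uninjured ear was lost without LG/J uninjured replicate 1 (0.071) or 3 (0.0621) and with the 2 uninjured groups fitted alone (0.0894), as was that of Fgf7 (0.0611).

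Fgf10 was not called between strains. On ILMN_2736497 the LG/J mean was 6.86 at day 7, against 6.32 in SM/J, a difference of 0.54 ± 0.19 (adjusted p = 0.0502), and no arrays overlapped. It was called without LG/J uninjured replicate 1 (0.0451) or 4 (0.0139), SM/J day 7 replicate 1 (0.68, 0.0396) or SM/J uninjured replicate 2 (0.0448). ILMN_2982771 differed by -0.02 at day 7, so the probes of this gene disagree there. In uninjured ear they differed by 0.37 and 0.41 without a call, and without LG/J uninjured replicate 4 by 0.57 and 0.66 with calls (adjusted p = 0.0183 and 0.00889).

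Fgf2, Fgfr3 and the Fgfr2 probes ILMN_2609887 and ILMN_2646078 gave strain results that turned on LG/J uninjured replicate 4. In uninjured ear the LG/J minus SM/J difference of the Fgfr3 probe ILMN_1257208 was -1.29 ± 0.69 with all arrays (adjusted p = 0.209), and -2.36 without that array (adjusted p = 0.000684). Fgf2 gave -0.84 (adjusted p = 0.0677) and -1.23 (0.00216), and the Fgfr2 probe ILMN_2609887 gave -0.46 (0.415) and -1.05 (0.00136). Fgf2 was below background on uninjured LG/J replicates 1 and 3 and on all LG/J day 7 arrays, so the sizes of its differences are uncertain. With the LG/J day 7 arrays set at the limit, its strain difference in means there was 1.075-fold. The second Fgfr3 probe gave -0.45 (0.398) and -0.89 (0.0249), and the Fgfr2 probe ILMN_2646078 gave -0.61 (0.115) and -0.83 (0.0239). The other Fgfr2 probes were higher in LG/J, without a call with or without that array. ILMN_1225071 gave 0.32 (0.182) and 0.14 (0.469), and ILMN_1229167 gave 0.44 (0.0911) and 0.50 (0.0524). Without SM/J uninjured replicate 2, Fgf2 was also called, at -1.12 (0.0215), as was ILMN_2646078, at -0.93 (0.011). At day 7, leaving that LG/J array out called 3 more probes lower in LG/J, although it is no day 7 array and enters there only through the shared spread: Fgf2 (adjusted p = 0.031), Fgfr2 ILMN_2609887 (0.038) and Fgfr3 ILMN_1257208 (0.0309). Fgfr1, Fgf9 and Fgf18 were called in neither strain comparison, with or without it.

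**Figure D3:**
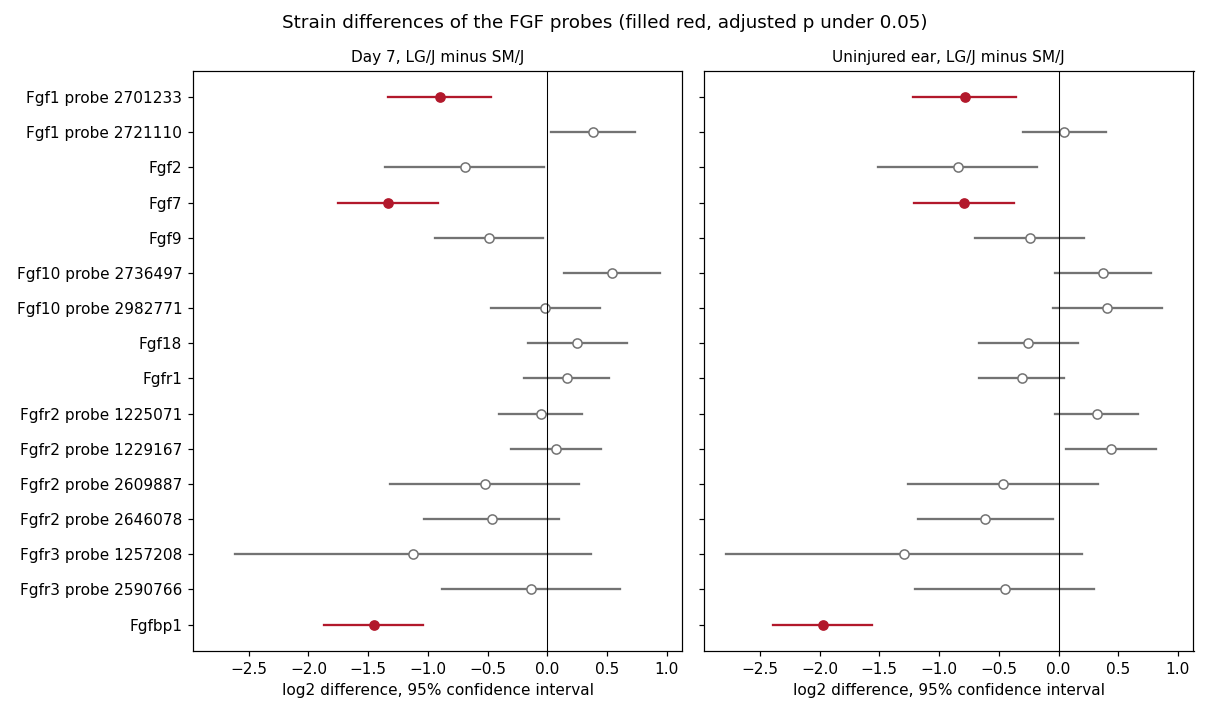
Log2 difference of each FGF probe, LG/J minus SM/J, with 95% confidence intervals, at day 7 on the left and in uninjured ear on the right (filled red, adjusted p under 0.05). Fgf1, Fgf7 and Fgfbp1 are called below 0 on both sides, and the Fgfr3 probe ILMN_1257208 has the widest intervals.

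By arrays, 7 FGF probes were lower and 3 were higher in LG/J at day 7 with no overlap between strains, where 22.4% and 26.3% of all probes were (48.7% in all). In uninjured ear 3 were lower and 1 was higher, the Fgfr2 probe ILMN_1229167, where 12% and 17.4% were (29.4% in all). The 3 higher at day 7 were Fgf18, Fgf10 on ILMN_2736497 and Fgf1 on ILMN_2721110. The last was just above background in LG/J, at 5.90 to 6.24, and below it on all 3 SM/J day 7 arrays. With the SM/J arrays set at the limit its mean was 1.18-fold higher in LG/J, but the difference was not called (adjusted p = 0.101).

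The array LG/J uninjured replicate 4 departed from the other uninjured LG/J arrays in both directions on FGF probes. On 11 of 16 FGF probes it lay nearer the uninjured SM/J mean than the mean of those LG/J arrays. The same held for 58% of all tested probes. It was higher by 3.21 on Fgfr3 ILMN_1257208, 1.75 on Fgfr2 ILMN_2609887, 1.31 on Fgfr3 ILMN_2590766 and 1.15 on Fgf2. It was lower on Fgf18 and on both Fgf10 probes, by log2 differences of -0.78, -0.58 and -0.77. Its part in the spread of these genes beyond the values given was not tested. The estimated quality weight of this array was 0.155 and that of SM/J uninjured replicate 2 was 0.402, the lowest values of the 12.

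**Figure D4:**
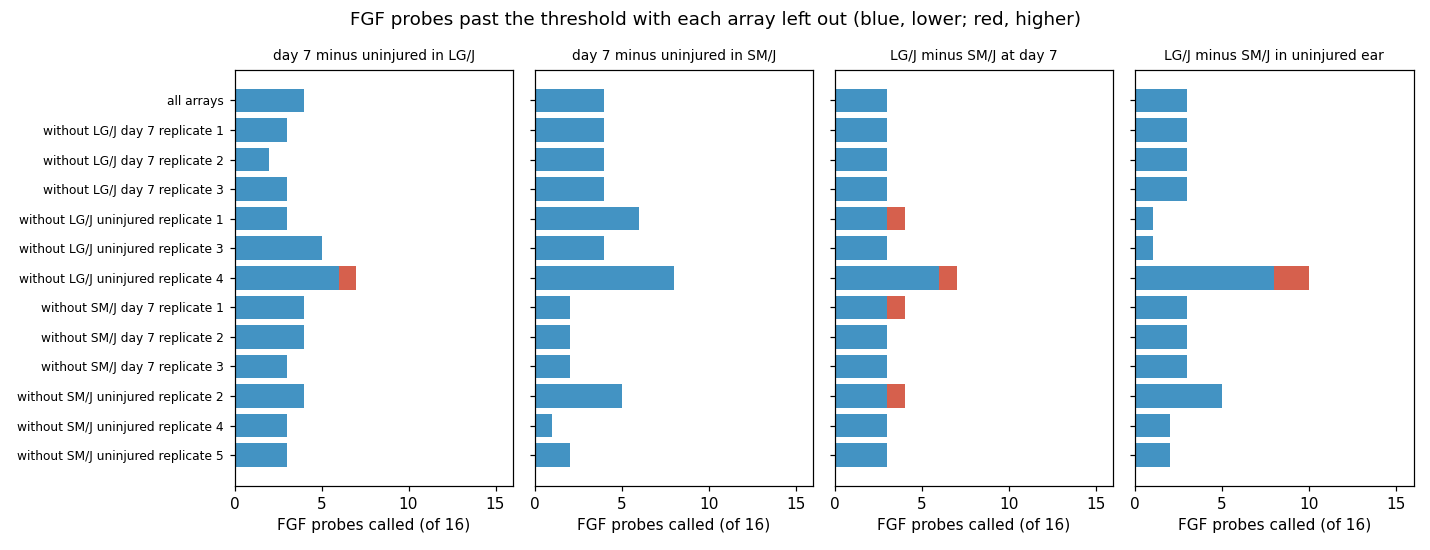
Number of the 16 FGF probes called in each comparison with all arrays (top bar) and with each array left out in turn, split into called lower (blue) and called higher (red). Leaving out LG/J uninjured replicate 4 gives 7, 8, 7 and 10 calls, where all arrays give 4, 4, 3 and 3.

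Other genes of the FGF pathway moved in both directions at day 7. Of 92 genes listed, 70 were tested, and 8 rose and 4 fell in LG/J, where 9.04% of all probes were called, while 5 rose and 9 fell in SM/J, where 9.39% were. Their median log2 difference was 0.05 in LG/J and -0.03 in SM/J, near that of all probes. Without LG/J uninjured replicate 4 the counts were 6 and 6 in LG/J, where 9.64% of all probes were called, and 10 and 11 in SM/J, where 17.6% were.

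Genes that build or trim heparan sulfate, the co-receptor of FGFs, have the most tested genes and gave the most calls, with 5 of 21 up and 2 down in LG/J and 4 up and 2 down in SM/J. Sulf1, which removes sulfate groups that FGFs bind, rose by 0.85 ± 0.16 in LG/J (adjusted p = 0.00445) and by 0.93 ± 0.16 in SM/J (0.00203). Ext1, which extends the chain, rose by 0.77 in LG/J (0.0075) and 0.91 in SM/J (0.00229). Hs6st2, a sulfotransferase, rose in LG/J by 0.79 ± 0.17 (0.0104), and Hpse, the enzyme that cleaves the chain, rose by 0.54 in LG/J (0.0431) and 0.53 in SM/J (0.0434). The core protein genes Gpc6 in LG/J (-0.71, adjusted p = 0.0229) and Hspg2, or perlecan, in SM/J (-0.79, 0.0157) fell. The Gpc6 call was lost without LG/J uninjured replicate 4 (-0.58, adjusted p = 0.0573).

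Among ligands outside the 10 genes, 1 of 6 rose in each strain: Fgf21, a ligand known as a metabolic hormone, in LG/J by 0.73 ± 0.13 (adjusted p = 0.00412), and Fgf5, known for ending hair growth, in SM/J by 0.86 ± 0.19 (0.013). Fgf5 was below background on all uninjured SM/J arrays, so it was at least 1.4-fold higher at day 7. Fgf13, an intracellular homologous factor that binds sodium channels, fell by 0.64 in LG/J (0.00731) and 0.75 in SM/J (0.00228), the 1 call among 2 such genes. Among 7 other receptors and binding proteins, Flrt2 rose in LG/J (0.65, 0.00992), and Flrt1 (-1.15, 0.00184) and the kinase-lacking receptor Fgfrl1 (-1.01, 0.000187) fell in SM/J. In the signal relay, 1 of 13 fell in each strain, Pik3r1, a regulatory subunit of PI3 kinase (-0.63 in LG/J, 0.0105; -0.90 in SM/J, 0.00096).

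Genes induced by FGF signalling did not move together. Of 11 feedback inhibitors, 0 were called in LG/J, where 2 had an unadjusted p under 0.05 and Spred1 stood at -0.40 (adjusted p = 0.06), and 2 fell in SM/J, Spred1 (-0.81, 0.000918) and Dusp4 (-0.60, 0.0483). Of 10 transcriptional targets, Etv4, an ETS factor, rose in LG/J (0.65 ± 0.19, adjusted p = 0.0441), a call lost without LG/J uninjured replicate 4 (0.41, 0.0904). In SM/J it differed by 0.54 and was called without that array (adjusted p = 0.0116). Its relative Etv5 fell in SM/J (-1.01 ± 0.15, adjusted p = 0.00067). The interaction called 0 of the 70 genes, with 9 at an unadjusted p under 0.05. It stood at 0.80 for Etv5 (adjusted p = 0.119) and 0.75 for Fgfrl1 (0.0962).

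Between strains, 12 of the 70 genes were higher and 3 lower in LG/J at day 7, where 25.2% of all probes were called, and 4 were higher and 5 lower in uninjured ear, where 21.6% were. Etv4 was higher in LG/J at both, by 1.05 ± 0.19 (adjusted p = 0.00183) and 0.93 ± 0.19 (0.0043). Fgfrl1 was higher by 1.16 ± 0.12 at day 7 (3.41e-05) and 0.41 ± 0.12 in uninjured ear (0.0305), and Flrt1 by 1.01 at day 7 (0.00253). The FGF feedback phosphatase Dusp6 was lower in LG/J at day 7 (-0.51, 0.0374). In uninjured ear Fos was lower in LG/J (-2.39 ± 0.60, adjusted p = 0.0141), as were Etv5 (-0.90, 0.00108), the feedback inhibitor Spred1 (-0.56, 0.00651) and Myc (-0.77, 0.0142). Myc was also lower in LG/J at day 7 (-0.59, 0.0404). Hspg2 (0.78, 0.00936) and Pik3r1 (0.60, 0.00714) were higher in LG/J at day 7, as was Fgf21 (0.74, 0.00197). Among heparan sulfate genes, Ndst2, an early sulfotransferase, was higher in LG/J by 0.54 at day 7 and 0.44 in uninjured ear, the core protein gene Gpc1 by 0.46 and 0.43, and Hs6st2 by 0.54 at day 7. In the signal relay, the adaptor genes Frs3 (0.41, 0.0423) and Shc1 (0.40, 0.0473) were higher in LG/J at day 7, as was the target Ccnd1 (0.41, 0.0349), and the target Ier2, below background on all LG/J day 7 arrays, was at least 1.37-fold lower there (adjusted p = 0.00557). The sulfatase gene Sulf2 was lower in uninjured LG/J ear (-0.64, adjusted p = 0.0144). With LG/J uninjured replicate 4 left out, 15 were higher and 6 lower at day 7, where 34.9% of all probes were called. In uninjured ear 13 were then higher and 6 lower, where 35.6% were.

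**Figure D5:**
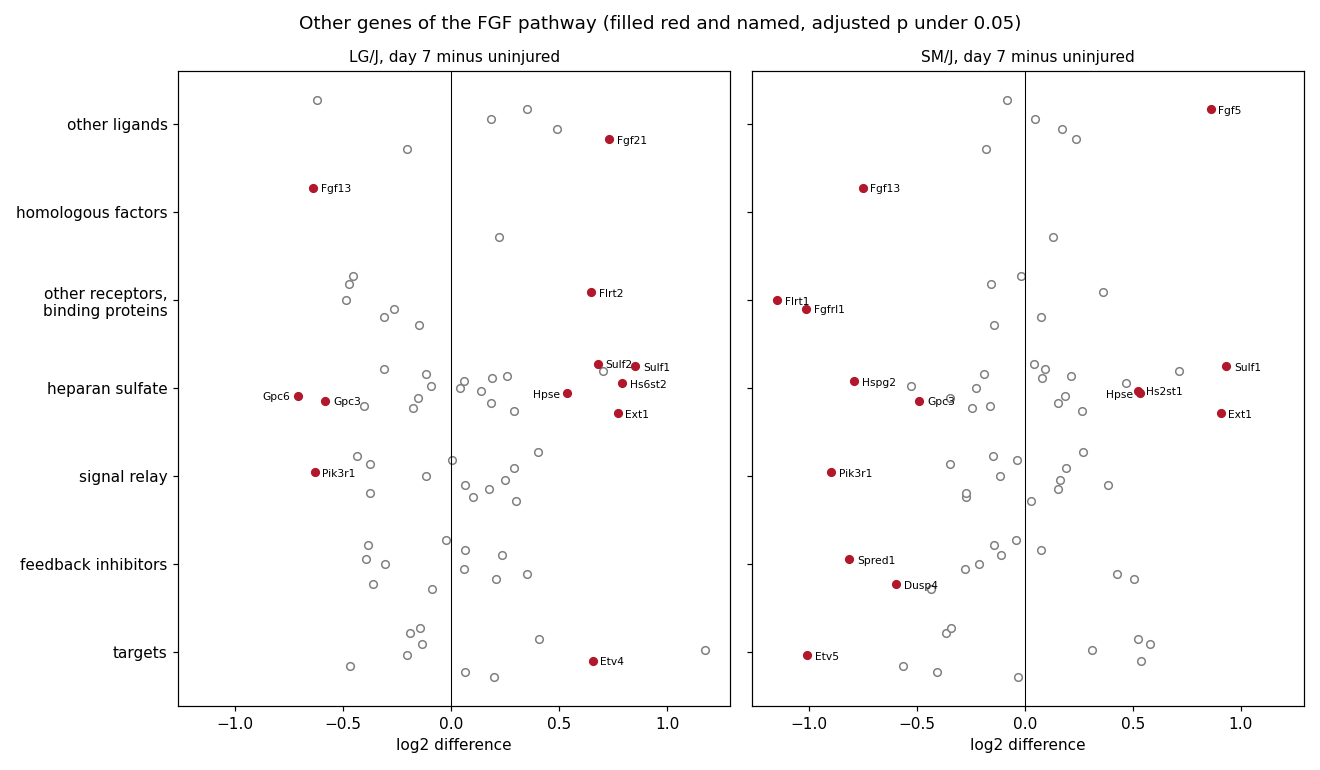
Log2 difference, day 7 minus uninjured, of the 70 tested genes in 7 lists of the FGF pathway, in LG/J on the left and SM/J on the right (filled red and named, adjusted p under 0.05). Calls fall on both sides of 0: 8 up and 4 down in LG/J, 5 up and 9 down in SM/J.

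Markers of cell types in the ear also differed at day 7. Over all probes, 9.04% were called in LG/J, 4.81% higher and 4.23% lower, and 9.39% in SM/J, 5.17% higher and 4.21% lower. Skeletal muscle markers fell for 5 of 7 in LG/J, and for 1 of 7 in SM/J, Schwann cell markers for 3 and 4 of 4, adipocyte markers for 2 and 6 of 6, and cartilage markers for 2 and 5 of 7, with 1 cartilage marker higher in each strain. Of the basal keratinocyte list, 3 of 7 fell in LG/J and 1 of 7 in SM/J, while Krt5 and Krt14 were called in neither. Dermal fibroblast markers gave 1 rise of 10 in LG/J and 1 fall in SM/J. Macrophage markers rose for 4 of 6 in LG/J and 1 of 6 in SM/J, endothelial markers for 2 and 3 of 6, smooth muscle markers for 2 and 1 of 5, and T cell markers for 2 of 5 in LG/J. Of 5 differentiated keratinocyte markers, 1 rose in LG/J, and 2 rose and 1 fell in SM/J. Of 5 hair follicle markers, 1 fell in SM/J. Without LG/J uninjured replicate 4, 9.64% of all probes were called in LG/J and 17.6% in SM/J. Macrophage markers then rose for 4 and 5 of 6, and skeletal muscle markers fell for 4 and 2 of 7. T cell markers rose for 1 of 5 in each strain and fell for 2 in SM/J. With that array left out, dermal fibroblast markers gave 2 rises and 1 fall in LG/J and 2 rises and 2 falls in SM/J, Schwann cell markers fell for 4 of 4 in LG/J, no cartilage marker rose in LG/J, and 2 differentiated keratinocyte markers fell in SM/J.

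Summed over the list, the log2 level of basal keratinocyte markers was 16.3 in LG/J at day 7, against 16.5 to 16.7 in uninjured LG/J ear, and 16.3 to 16.4 in SM/J at day 7, against 16.5 to 16.6 in uninjured SM/J ear. Adipocyte markers summed to 12.1 to 12.3 in LG/J at day 7, against 13 to 13.1 in uninjured LG/J ear, and 11.2 to 11.5 in SM/J at day 7, against 12.1 to 13 in uninjured SM/J ear. The hair follicle list summed to 8.16 to 8.75 in LG/J at day 7, against 8.22 to 9.83 in uninjured LG/J ear, and 7.98 to 8.11 in SM/J at day 7, against 8.33 to 8.58 in uninjured SM/J ear. The hair keratins Krt25, Krt28 and Krt71 were above background on 5, 2 and 3 of the 12 arrays, Lhx2 of the hair follicle on 5, and Matn3 of cartilage on 1. Fabp4 and Plin1 of fat were above it on 2 and 10, and Itgam of macrophages on 2. Cd4 and Cd28 of T cells were above it on 8 and 10, and Myh4 of skeletal muscle on 11. Skeletal muscle markers summed to 14.8 to 15.2 in LG/J at day 7, against 15.5 to 16.1 in uninjured LG/J ear. In SM/J they summed to 14.6 to 14.7 at day 7. Uninjured SM/J replicate 2 stood at 15.9, and replicates 4 and 5 at 14.8 and 14.8. The part of these cell types in the FGF differences was not tested.

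The genes most like each of 4 FGF genes over the 12 arrays were found by Pearson correlation of log2 levels, as a description. For Fgfbp1 they were Rpl30 (0.979), Vamp8 (0.979) and Spcs3 (0.978), and for Fgf7 they were Eef1b2 (0.981), Sft2d2 (0.976) and Fam172a (0.975). The arrays come from 4 groups, so strain and injury both enter these values. For the Fgfr2 probe ILMN_1225071 they were Ppm1k (0.977), Entpd5 (0.972) and Bbs2 (0.970), and for Fgf18 they were Wfikkn2 (0.967), Tmod2 (0.959) and Lgi4 (0.952). The Fgfr3 probe ILMN_1257208, added after its values were seen, was most like Rnf167 (0.985), Ing3 (0.979) and Rab12 (0.977).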

How the data were processed

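Ear RNA was measured on 12 arrays. Per the labels' protocols it was isolated with Trizol, and its biotin-labelled copies were detected by streptavidin-Cy3. BeadStudio is named in the submitters' processing notes. The deposited per-array values are linear intensities per probe, with no detection p-values. The deposited series table holds normalized intensities and served as an alternative. Intensities were background-corrected by normexp with an offset of 16 (which shrinks differences of dim probes), log2-transformed and then quantile normalized, and the 25% of probes with the lowest mean were dropped. Each probe was tested with limma 3.58.1 in R 4.3.3, with 1 mean per group over all 12 arrays (lmFit, eBayes) and Benjamini-Hochberg adjustment. Exact permutation of 3 against 3 arrays cannot go below 0.1. The background limit is the 95% quantile of a normal curve fitted to the lower side of each array's signal. A group below it is set at the higher of its own signal and the lowest signal above the limit ("at least N-fold"). Pathway and marker genes are represented by their highest probe, and up to 4 called genes per list and comparison are named by size of change; Hpse is given in LG/J too because it is named in SM/J. The number of arrays limits the precision. The genes and lists were chosen with earlier results of these data known. The test was run on simulated data in which each probe had the same spread on every array. That setting does not cover an array that stands apart. Gene names come from the platform annotation, where 23604 probes have 1 name, 12 several and 21665 none. Sequences were processed with Python 3.11.15 and are credited to RefSeq.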

Additional observations from a re-analysis of the deposited data

How the results depend on the processing

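All 80 FGF log2 differences were recomputed under 23 alternatives, 12 of which leave out 1 array. A value was called with its sign turned in 1 case: with both arrays of lowest weight left out (replicate 4 of uninjured LG/J, replicate 2 of uninjured SM/J), the interaction of the Fgfr2 probe ILMN_2609887 was 0.77, against -0.06 with all arrays. In the order LG/J injury, SM/J injury, interaction, strain at day 7 and strain in uninjured ear, 4, 4, 0, 3 and 3 FGF probes and 3071, 3188, 117, 8541 and 7326 of all probes were called. With both arrays out, FGF calls were 8, 10, 3, 8 and 10, and all calls were 4476, 7617, 2345, 13177 and 13289. Array weights gave 8, 10, 1, 9 and 11 FGF calls and 6002, 8355, 1623, 13299 and 15479 in all. Median scaling gave 7 FGF calls in LG/J and 7 in SM/J, where 3294 and 3160 of all probes were called, and 71 interaction calls in all. Fitting only the groups compared gave 2, 7, 8 and 1 FGF calls for LG/J, SM/J, day 7 and uninjured ear, and 1639, 4174, 11866 and 2689 in all. The labels do not say whether the replicate numbers pair the arrays. Over 10 pairs of same-numbered arrays of different groups, deviations from the group means correlated by -0.0877 to 0.264. Of 11 arrays with such a partner, 10 correlated best with another number. Most of these pairs cross strains and each group has 3 arrays, so the values cannot decide whether arrays are paired. With the replicate number as a block, FGF calls were 2 in SM/J, 9 at day 7 and 1 in uninjured ear, where all calls were 1582, 10082 and 3794. All interaction calls were then 14. Leaving out 1 array gave FGF calls of 2 to 7 in LG/J, 1 to 8 in SM/J, 0 to 0 for the interaction, 3 to 7 at day 7 and 1 to 10 in uninjured ear, and all calls of 1513 to 3386, 1673 to 5977, 17 to 501, 4803 to 11864 and 3464 to 12078. No total count of calls moved by more than 1.5 times with no background correction, an offset of 50, the authors' table, no filter, the dimmest 50% removed or 1 probe per gene, but all probes called higher for the interaction were 23, 22, 25 and 5 under the first 4 of these, against 10. The cause of these moves was not tested. Signals near background limit Fgf2, Fgf9, ILMN_2721110, ILMN_2646078 and ILMN_2590766.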
